A study of Mus musculus with 39 samples.

Results

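Collagen genes of the mouse were taken from the deposited count table by symbol, as every gene named Col, a number, a and a number, which gave 44 of 24100 genes. They fall by structure into 11 fibrillar chains, 8 chains of basement membranes and multiplexins, 11 chains of microfibrils and networks, 9 fibril-associated chains (FACITs), 4 transmembrane chains and 1 other chain, Col26a1. The study followed granule neurons of the cerebellum, which are small and excitatory, in 39 libraries of polyadenylated RNA from that region. Of these 19 were made by translating ribosome affinity purification (TRAP): the ribosomal protein L10a carries an EGFP tag in chosen cells, and pulling on the tag recovers the RNA on their ribosomes. The Tg(NeuroD1-Egfp-L10a) line, in which a Neurod1 transgene marks differentiating granule cells, gave 5 libraries each at postnatal day 7 (P7), P12 and P21, all from lysates of whole cerebellum. Total cerebellar RNA served as input, with 1 library at each of these ages. The Tg(Atoh1-Egfp-L10a) line, called Math1 in the labels after the older name of Atoh1, gave 4 libraries from granule cell progenitors isolated at P7. All of these animals are C57Bl/6J.

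The remaining libraries come from granule cells purified from C57Bl/6J mice of P6 to P7 and from a conditional mutant. Cells taken before plating (0 days in vitro, DIV0), after 2 days with DMSO (DIV2) and after 5 days with 100 nM UNC1999 or with DMSO (DIV5) gave 2 libraries each. UNC1999 inhibits the histone H3K27 methyltransferases Ezh2 and Ezh1. Cultures of 5 days from P7 mice with floxed Ezh1 alleles (Ezh1 cKO, 4 libraries) were set against cultures with unaltered Ezh1 (wt, 5 libraries), and every animal of both genotypes carries the Atoh1-Cre transgene. Their strain is not given in the sources used here. Nothing in the labels says that replicates are separate animals or cultures, so that p-values measure the spread between these libraries, which may be technical.

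Collagens are trimers of chains wound into a triple helix. Fibrillar collagens such as types I, III and V make the banded fibres of connective tissue, and in the brain they are known mainly from the meninges and the walls of larger vessels. Type IV chains form the sheet-like network of basement membranes, under the pia and around every vessel, with the multiplexins type XV and XVIII beside it. FACITs such as type IX do not form fibres alone but sit on the surface of other fibres, and transmembrane collagens are cell surface proteins with a collagenous ectodomain.

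The chains of a trimer are made from separate genes, and 2 pairs of such genes carry much of what follows. Col4a1 and Col4a2 encode the chains of the common type IV trimer, and their levels stayed within a narrow ratio in every group. They lie head to head on chromosome 8, with annotated start sites 21 bases apart at 11312826 on the minus strand and 11312805 on the plus strand. The annotated genes overlap by 85 bases, and Col4a3 and Col4a4 on chromosome 1 by 114, and as the kit named in the labels does not mark strand, reads of these stretches cannot be assigned by strand. The promoter windows of Col4a1 and Col4a2 are shown because they are in part the same DNA. Each window runs from 250 bases before to 50 after the start site in RefSeq on GRCm38.p6, and capitals mark the 78 bases that both windows hold, read on opposite strands.
Col4a1, chr8:11312777-11313076, minus strand: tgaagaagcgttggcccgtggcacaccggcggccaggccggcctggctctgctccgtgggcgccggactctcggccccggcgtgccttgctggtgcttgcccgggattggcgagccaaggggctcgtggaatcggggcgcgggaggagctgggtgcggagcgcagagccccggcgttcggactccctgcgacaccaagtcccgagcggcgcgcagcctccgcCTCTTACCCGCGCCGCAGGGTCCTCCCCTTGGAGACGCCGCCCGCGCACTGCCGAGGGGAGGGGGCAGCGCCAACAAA
Col4a2, chr8:11312555-11312854, plus strand: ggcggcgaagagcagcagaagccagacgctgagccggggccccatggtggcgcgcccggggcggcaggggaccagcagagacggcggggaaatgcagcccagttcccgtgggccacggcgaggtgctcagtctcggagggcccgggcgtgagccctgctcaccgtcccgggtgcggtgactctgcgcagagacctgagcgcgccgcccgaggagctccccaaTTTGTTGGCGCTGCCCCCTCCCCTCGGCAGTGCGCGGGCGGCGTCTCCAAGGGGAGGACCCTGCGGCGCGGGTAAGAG

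Col9a1 and Col9a2, which encode chains of the same FACIT trimer, lie on different chromosomes and moved apart between ages and lines. Their windows are shown for that contrast. RefSeq gives Col9a1 a pair of start sites. The upstream window of Col9a1 holds no CG dinucleotide. Of the motifs searched on both strands, which were the GC box GGGCGG, the CCAAT box and the TATA-box letters TATAAA, it holds none. In the downstream window capitals mark CCAAT, and in the Col9a2 window capitals mark the GC box and its reverse complement, which stand there 3 times.
Col9a1, chr1:24177360-24177659, plus strand: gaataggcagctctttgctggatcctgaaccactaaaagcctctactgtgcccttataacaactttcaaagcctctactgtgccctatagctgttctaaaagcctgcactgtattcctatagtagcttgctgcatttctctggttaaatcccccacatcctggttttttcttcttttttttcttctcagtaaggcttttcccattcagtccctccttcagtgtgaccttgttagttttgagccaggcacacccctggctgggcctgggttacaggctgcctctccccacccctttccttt
Col9a1, chr1:24194953-24195252, plus strand: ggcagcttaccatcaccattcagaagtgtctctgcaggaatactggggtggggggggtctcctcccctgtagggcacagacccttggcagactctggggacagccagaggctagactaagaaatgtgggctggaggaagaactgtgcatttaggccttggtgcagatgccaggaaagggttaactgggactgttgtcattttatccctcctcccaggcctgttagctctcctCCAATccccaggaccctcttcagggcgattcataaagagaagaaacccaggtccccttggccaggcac
Col9a2, chr4:121039316-121039615, plus strand: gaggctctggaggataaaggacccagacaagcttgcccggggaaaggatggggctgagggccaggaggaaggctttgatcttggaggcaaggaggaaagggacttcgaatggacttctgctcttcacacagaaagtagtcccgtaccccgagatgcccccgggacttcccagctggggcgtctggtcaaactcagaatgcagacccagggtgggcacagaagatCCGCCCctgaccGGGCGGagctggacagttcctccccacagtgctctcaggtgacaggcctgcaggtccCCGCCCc

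Of the 44 collagen genes, 35 have windows of this kind, 38 in all. GGGCGG on either strand stood in 23 of these 38 windows (60.5%), against 35.7% of all 32851 windows of the table. The same shares were 34.2% against 37.4% for CCAAT and 13.2% against 13.6% for TATAAA. A match is a description of the letters and was not tied to any factor.

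Library totals ran from 12.1 to 38.5 M counts (M for mega), and levels are given as CPM, counts relative to the scaled library size, on a single scale for all libraries. Mature granule cell markers summed to between 17506 and 18978 CPM in Neurod1 TRAP at P21, against 1663 to 1975 CPM in Math1 TRAP at P7. Markers of cells other than granule cells were present in every group, and of the marker lists of non-neuronal cells none had a gene at 0 in all libraries of a group. Among the Ezh1 cultures, libraries 1 and 2 of each genotype stand apart from the libraries numbered 3 and above, as set out with those cultures. Because Col4a5 and Col4a6, both on the X chromosome, are blank in the Ezh1 libraries, shares of all collagens are given over the other 42 genes.

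Collagens took a small share of counts in the granule cell pull-down and a larger share in RNA of whole cultures, which hold other cells as well. Over 42 genes they took 0.0116% ± 0.00249, 0.0153% ± 0.000243 and 0.00801% ± 0.000556 of counts in Neurod1 TRAP at P7, P12 and P21 (SD, n = 5 each), against 0.043%, 0.0457% and 0.0341% in the inputs of those ages. The share was 0.0318% ± 0.00482 in Math1 TRAP (SD, n = 4). In freshly isolated cells it was 0.164% ± 0.00195, after 2 days in culture 0.793% ± 0.252, and after 5 days 2.7% ± 0.199 (SD, n = 2 each). Every culture library lay above every TRAP library and input. Of the 44 genes, 37 had their highest group mean in a library group of 5-day cultures, 3 in freshly isolated cells (Col13a1, Col15a1 and Col6a5), 3 in an input (Col25a1, Col4a3 and Col20a1) and 1, Col9a2, in Neurod1 TRAP at P21.

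**Figure D1:**
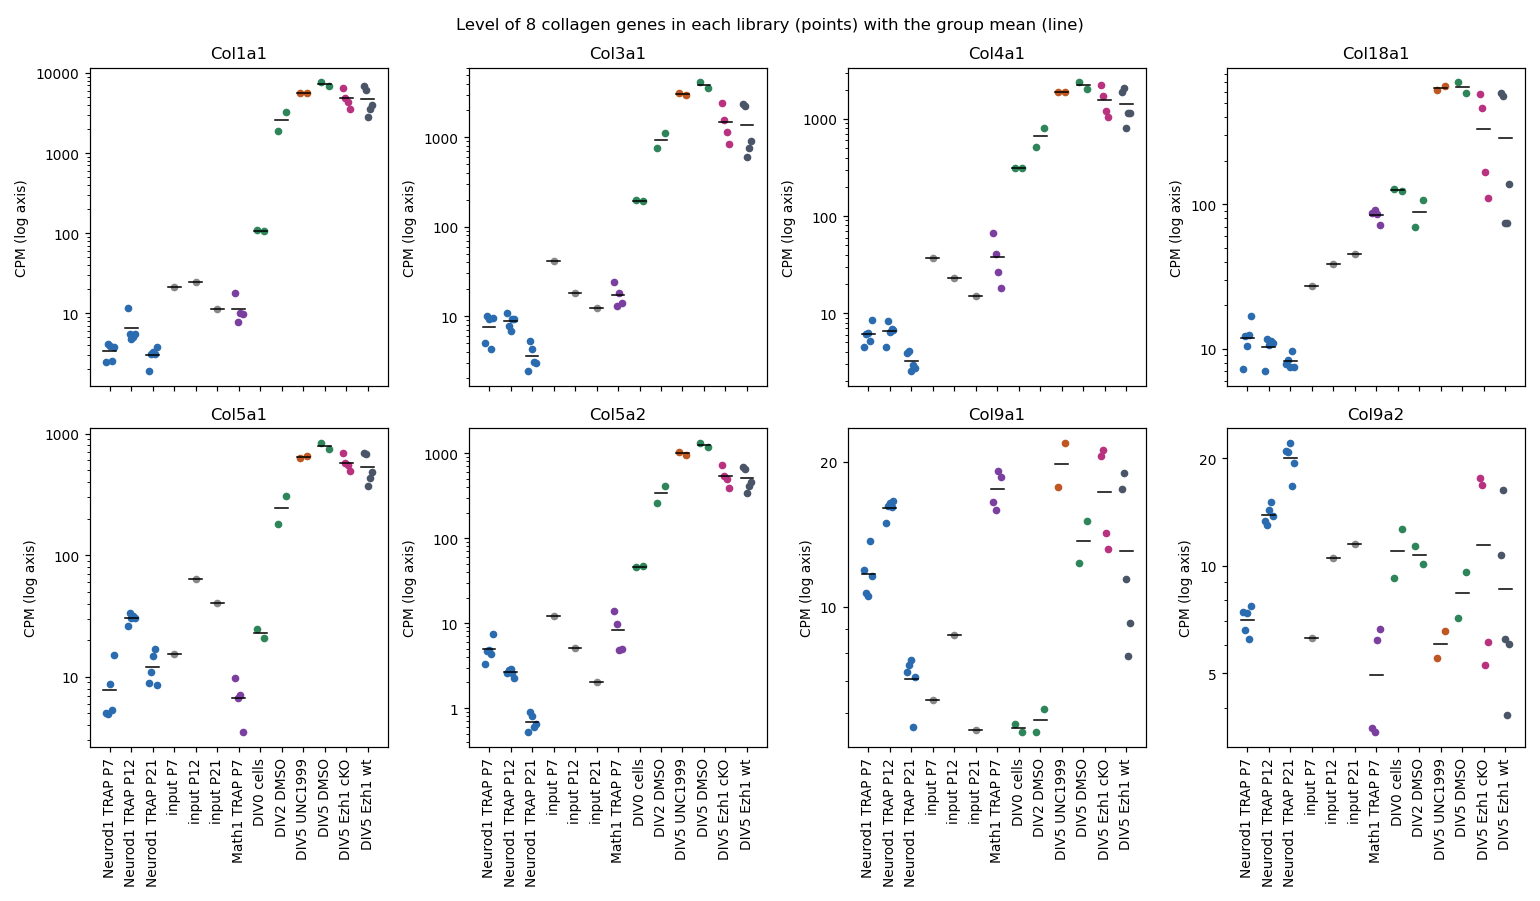
CPM on a log axis in each library (points) with the group mean (line) for 8 collagen genes in all 13 groups. Col1a1, Col3a1, Col4a1 and Col18a1 are lowest in Neurod1 TRAP and highest in 5-day cultures. Col9a1 lies in Neurod1 TRAP within the range of the cultures, and so does Col9a2 at P7 and P12. Col9a2 has its highest mean, 20 CPM, in Neurod1 TRAP at P21, where most libraries lie above every culture library.

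The chains that led the granule cell pull-down were those of type IX. Per kilobase of exon, Col9a1, Col9a2 and Col9a3 were the 3 highest of all collagens in Neurod1 TRAP at each age. Col9a3 led at P7 with a mean of 5.95 CPM per kb, before Col9a1 at 2.84 and Col9a2 at 2.42 CPM per kb. At P21 Col9a2 led with 6.85 CPM per kb, before Col9a3 at 2.11 and Col9a1 at 1.72 CPM per kb. In the inputs Col9a3 led at every age as well, with 9.74, 9.6 and 8.61 CPM per kb at P7, P12 and P21, followed at P7 by the fibrillar chains Col3a1 (7.36 CPM per kb) and Col1a2 (6.49 CPM per kb). In 5-day DMSO cultures the order was Col1a1, Col1a2, Col3a1, Col4a1 and Col4a2, at 1232, 870, 693, 335 and 261 CPM per kb, and no type IX chain was among these 5.

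Which collagens are held or lost by the pull-down was read from Neurod1 TRAP against input. The fit held 15 TRAP libraries and 3 inputs, with age as a factor, and gives 1 average effect over the ages. With 1 input per age, the spread behind its p-values comes mostly from the TRAP libraries. Of 37 collagens with enough counts, 2 were higher in TRAP, Col9a1 and Col9a2, and 33 were lower. Over all 15479 genes tested, 36.6% were higher and 41.2% lower (77.8% in all). The median log2 fold change was -1.91 over the collagens and -0.07 over all genes. This contrast is the one that sorts the collagens into those enriched and those depleted by the pull-down, so that these counts describe the sorting. All 10 fibrillar chains tested and all 8 chains of basement membranes and multiplexins were lower in TRAP, as were 6 of 7 microfibrillar and network chains, 5 of 8 FACITs, the 3 transmembrane chains and Col26a1. Nearest to the threshold, Col9a2 (0.42 ± 0.11, adjusted p = 0.0014) was inside and Col16a1 (0.09 ± 0.23, adjusted p = 0.72) outside on the upper side, and Col14a1 (-1.55 ± 0.53, adjusted p = 0.013) was inside and Col28a1 (-0.2 ± 0.31, adjusted p = 0.56) outside on the lower side. Here and below, adjusted p-values come from edgeR's quasi-likelihood test with Benjamini-Hochberg adjustment over all genes tested, and ± after a log2 fold change is its SE. As the libraries are bulk RNA, fewer cells of a type and less RNA per cell cannot be told apart in any of these comparisons.

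Col9a1 (Entrez 12839, chr1:24177589-24252738, GRCm38) encodes the type IX chain that carries the trimer's globular N-terminal domain in cartilage. It held 11.9, 10.7, 10.5, 13.7 and 11.6 CPM in Neurod1 TRAP at P7, against 6.41 CPM in the P7 input. At P12 it held 14.9, 16.2, 16.4, 16.1 and 16.6 CPM in TRAP, against 8.73 CPM in the input. At P21 it held 7.3, 7.55, 7.73, 5.61 and 7.13 CPM in TRAP, against 5.54 CPM in the input. All 15 TRAP libraries lay above the input of their age. The fitted log2 fold change was 0.65 ± 0.12, or 1.57-fold higher (adjusted p = 4.1e-05).

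Col9a2 (Entrez 12840, chr4:121039566-121055325) held 7.42, 6.6, 7.37, 6.25 and 7.72 CPM in Neurod1 TRAP at P7, against 6.28 CPM in the input. At P12 it held 13.4, 13, 14.3, 15.1 and 13.8 CPM in TRAP, against 10.5 CPM in the input. At P21 it held 21, 20.8, 22.1, 16.7 and 19.4 CPM in TRAP, against 11.5 CPM in the input. Of the 15 TRAP libraries 14 lay above their input, and the other, at P7, lay just below it. The log2 fold change was 0.42 ± 0.11, or 1.34-fold higher (adjusted p = 0.0014). The call of both genes depended on scaling: with library size only, which set the median of all genes at -0.46, Col9a1 stood at 0.25 (adjusted p = 0.066) and Col9a2 at 0.03 (adjusted p = 0.82), no collagen was called higher, and 25.6% of called genes were higher instead of 47.1%.

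Col9a3 (Entrez 12841, chr2:180598102-180622192), which encodes the remaining type IX chain, went the other way. It held 12.7, 18.3, 20.1, 20.7 and 18.8 CPM in TRAP at P7, against 29.7 CPM in the input. At P12 the TRAP libraries lay between 16.1 and 19.8 CPM, against 29.2 CPM in the input, and at P21 between 4.47 and 8.82 CPM, against 26.2 CPM. Every TRAP library lay below its input, and the log2 fold change was -1.26 ± 0.19, or 2.4-fold lower (adjusted p = 6.8e-06). Col16a1, a FACIT of fibroblasts and smooth muscle, did not pass. It lay above the input in all 5 libraries at P12 and all 5 at P21, and below it in 4 of 5 at P7.

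Among the depleted chains, Col23a1, a transmembrane collagen, showed the smallest p-value (-2.89 ± 0.15, 7.44-fold lower, adjusted p = 5.5e-12). At P7 it held 2.05, 2.87, 2.48, 2.62 and 4.06 CPM in TRAP, against 23.4 CPM in the input. Col4a1 (Entrez 12826, chr8:11198423-11312889), the major basement membrane chain, held 4.43, 6.11, 6.25, 5.11 and 8.4 CPM in TRAP at P7, against 36.9 CPM in the input, and fell by 2.28 ± 0.16 on the log2 scale (4.86-fold, adjusted p = 3.9e-10). Each TRAP library was far below its input for both genes. Col4a2 (-2.02 ± 0.2), the multiplexins Col15a1 (-2.6 ± 0.21, 6.07-fold lower) and Col18a1 (-1.96 ± 0.18), and the type IV chain of specialised basement membranes Col4a4 (-3.14 ± 0.35) were lower too, Col4a4 with under 1 CPM in every TRAP library and input. Of the fibrillar chains, Col1a1 (Entrez 12842, chr11:94936224-94953042) held 2.47, 4.15, 3.9, 2.53 and 3.84 CPM in TRAP at P7, against 21 CPM in the input, and fell by 2.22 ± 0.21 (adjusted p = 1.2e-08). Col27a1 (-2.14 ± 0.18), Col1a2 (-2.06 ± 0.22) and Col3a1 (-1.86 ± 0.23) lay close to it, while Col11a1, which pairs with type II in cartilage fibrils, was least depleted of the class (-0.79 ± 0.25, adjusted p = 0.0078). Col12a1, a FACIT of dense connective tissue, fell by 1.91 ± 0.18. Of 32 collagens with at least 20 counts in each input, 27 lay below the input of their age in all 15 TRAP libraries. This count was not made over all genes, of which 41.2% were called lower in the fit. It rests on the same values as the sorting and describes it.

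**Figure D2:**
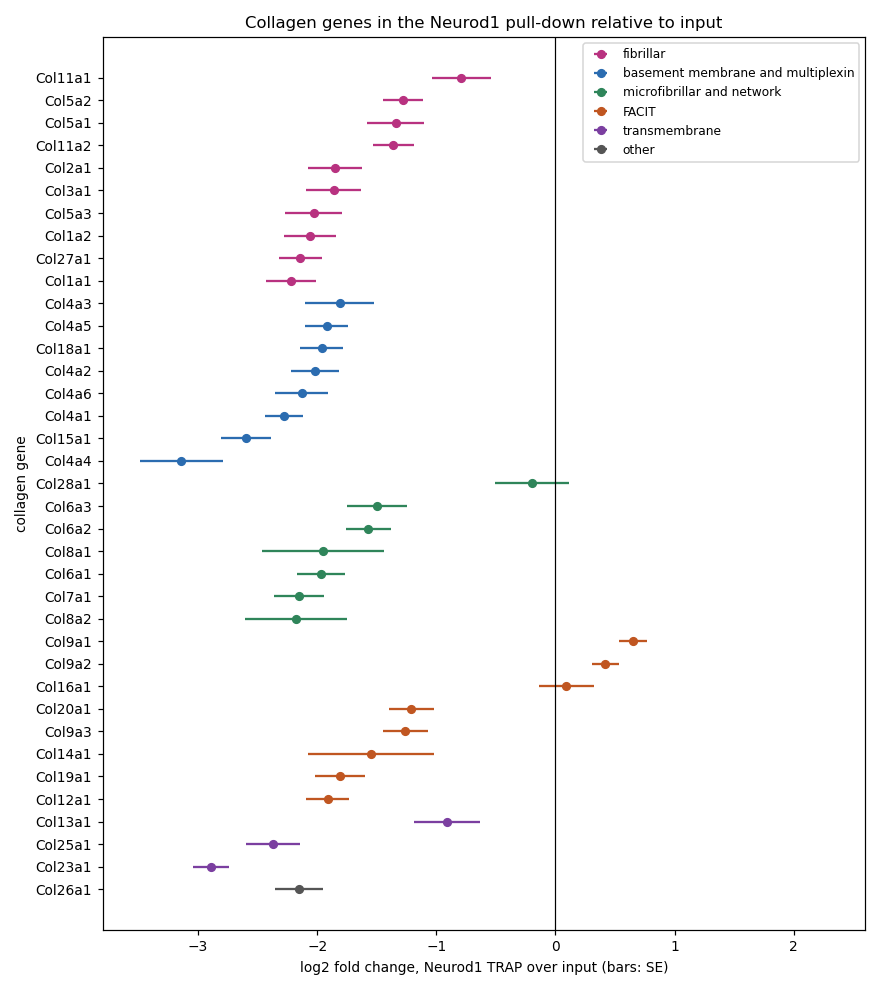
Log2 fold change of Neurod1 TRAP over input with its SE (bars) for the 37 collagens tested, coloured by structural class. Col9a1 (0.65) and Col9a2 (0.42) lie to the right of 0 with bars that do not reach it, Col16a1 and Col28a1 lie near 0, and the other 33 lie to the left of 0.

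Genes that make and hold collagen were lower in TRAP as well. Of 14 genes for cross-linking and cleavage 12 were lower and 0 higher, among them the procollagen N-proteinases Adamts3 (-2.33 ± 0.12) and Adamts2 (-1.82 ± 0.17) and the lysyl oxidase Lox (-2.56 ± 0.17). All 15 basement membrane partners were lower, with the laminin chains Lama4 (-3.17 ± 0.17) and Lama2 (-2.05 ± 0.14) and the collagen-binding protein Sparc (-2.38 ± 0.16) leading. Of 19 assembly genes 13 were lower and 1 higher, and the prolyl hydroxylase subunit P4ha2 (-1.81 ± 0.16), the collagen chaperone Fkbp10 (-1.91 ± 0.18) and the lysyl hydroxylase Plod1 (-1.48 ± 0.15) led. Of 9 receptors 8 were lower and 0 higher, led by the integrin chain Itga1 (-2.62 ± 0.21), the discoidin receptor Ddr2 (-1.9 ± 0.19) and the endocytic collagen receptor Mrc2 (-1.94 ± 0.2). All 10 endothelial, 10 mural and 10 fibroblast markers were lower in the same comparison. So were all 8 glial, 8 oligodendrocyte, 8 microglia, 7 Purkinje cell and 6 GABAergic interneuron markers. Choroid plexus markers were lower in 4 and higher in 1 of 5, and mature granule cell markers higher in 6 of 8. Endothelial markers summed to between 9.49 and 20 CPM in Neurod1 TRAP at P7, against 69.9 CPM in the input, and fibroblast markers to between 27.1 and 43.6 CPM, against 318 CPM. Their part in the collagen values was not tested.

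Across the ages of the Neurod1 pull-down, basement membrane chains fell and fibrillar chains split. At P12 against P7, 14 of 34 collagens tested were higher and 5 lower, where 31.5% of 14759 genes were higher and 36.7% lower (68.2% in all). The median log2 fold change was 0.3 over the collagens and -0.04 over all genes. Without P7 library 1, 13 were higher and 8 lower, and without P12 library 4 the median over the collagens was 0.14. At P21 against P12, 5 were higher and 23 lower, where 32.4% of genes were higher and 32.7% lower (65.1% in all), with a median of -0.96 over the collagens and 0 over all genes. At P21 against P7, 7 were higher and 17 lower, where 38.9% were higher and 42.5% lower (81.5% in all), with medians of -0.55 and -0.05. These comparisons share libraries. By class, fibrillar chains were higher in 6 and lower in 2 of 10 at P12 against P7, and higher in 1 and lower in 8 at P21 against P12. All 6 basement membrane and multiplexin chains tested were lower at P21 than at P7. With library size only, the median of all genes was -0.15 at P21 against P12 and -0.22 at P21 against P7.

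Type V and type XI chains, which start and limit the width of fibrils, moved in different directions. Col5a1 (Entrez 12831, chr2:27886381-28039510) held 5.04, 4.98, 8.78, 5.35 and 15 CPM at P7, 26.4, 33.4, 30.6, 31.4 and 30.3 CPM at P12 and 8.94, 10.9, 14.8, 16.8 and 8.56 CPM at P21. All P12 libraries lay above all others. Its change was 1.93 ± 0.28 at P12 against P7 (3.81-fold higher, adjusted p = 3.9e-06) and -1.36 ± 0.27 at P21 against P12 (adjusted p = 0.00018). Its partner Col5a2 (Entrez 12832, chr1:45374331-45503282) held 3.33, 4.65, 4.8, 4.33 and 7.49 CPM at P7, 2.61, 2.81, 2.88, 2.6 and 2.26 CPM at P12, and 0.518, 0.898, 0.8, 0.603 and 0.642 CPM at P21. The 3 ages did not overlap, in falling order with age. It was 1.91-fold lower at P12 against P7 (adjusted p = 0.0025) and 7.29-fold lower at P21 against P7 (-2.87 ± 0.29, adjusted p = 7.8e-09).

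The number of Col5a1 counts per Col5a2 count had a median of 1.51 at P7 (1.07 to 2.01), 11.9 at P12 (10.1 to 13.4) and 15.3 at P21, where only 2 of 5 libraries held 20 counts of both genes. The inputs gave 1.28, 12.3 and 20.4 at the same ages, from 1 library each. In cultures of 5 days the median was 0.645 with UNC1999, 0.63 with DMSO, 1.07 in Ezh1 cKO and 1.04 in Ezh1 wt, and it was 0.495 in freshly isolated cells.

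Col11a1 (Entrez 12814, chr3:114030479-114220756) held 7.27, 9.39, 9.42, 8.95 and 14.2 CPM at P7, 3.98, 5.99, 8.9, 7.37 and 5.17 CPM at P12 and 0.424, 0.327, 0.267, 0.377 and 0.499 CPM at P21. P7 and P12 overlapped, and P21 lay below both. It was 16.7-fold lower at P21 against P12 (-4.06 ± 0.27, adjusted p = 2e-11) and 26.6-fold lower at P21 against P7 (-4.73 ± 0.26, adjusted p = 2.2e-13). Col11a2, its partner chain, went the other way. It held 0.519, 0.914, 0.814, 0.899 and 0.959 CPM at P7, 5.31, 5.05, 3.39, 3.61 and 4.27 CPM at P12 and 2.82, 2.57, 2.48, 3.58 and 3.99 CPM at P21. All P7 libraries lay below all P12 and P21 libraries, with 5.15-fold higher levels at P12 against P7 (2.36 ± 0.21, adjusted p = 1.8e-09). Col5a3, the minor type V chain, was higher at P21 against P7 (1.9 ± 0.39), and so was Col27a1, a fibrillar chain of cartilage (0.76 ± 0.21).

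Type IX chains parted with age. Col9a2 rose at both steps, by 0.94 ± 0.14 at P12 against P7 and 0.5 ± 0.13 at P21 against P12, and was 2.72-fold higher at P21 against P7 (adjusted p = 2.2e-09). Col9a1 was higher at P12 against P7 (0.42 ± 0.09) and 2.31-fold lower at P21 against P12 (-1.21 ± 0.1, adjusted p = 4.3e-10). Col9a3 did not pass at P12 against P7 (-0.07 ± 0.14) and was 2.77-fold lower at P21 against P12 (-1.47 ± 0.14, adjusted p = 9.5e-09). The number of Col9a1 counts per Col9a2 count was 1.6 at P7 (1.42 to 2.18), 1.15 at P12 (1.07 to 1.24) and 0.349 at P21 (0.336 to 0.368), with no overlap between ages. The inputs gave 1.02, 0.835 and 0.483.

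**Figure D3:**
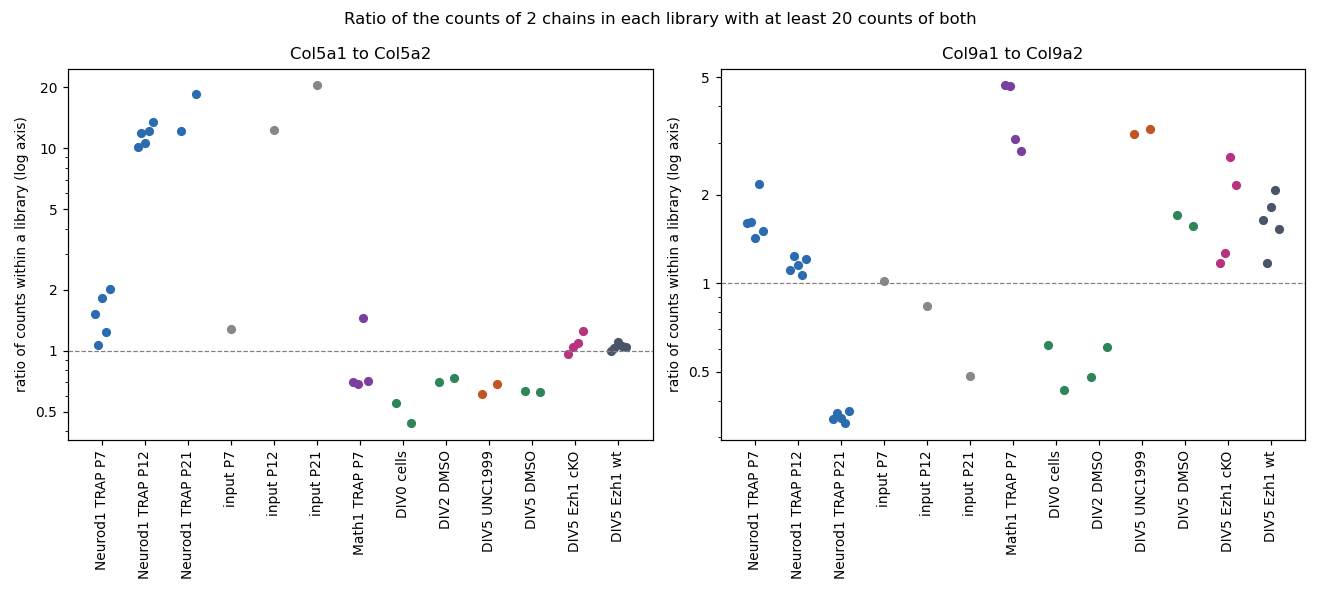
Counts of Col5a1 per count of Col5a2 and of Col9a1 per count of Col9a2 in each library (points, log axis) with at least 20 counts of both genes. In Neurod1 TRAP the type V ratio has medians of 1.51, 11.9 and 15.3 and the type IX ratio medians of 1.6, 1.15 and 0.349 at P7, P12 and P21.

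Of the basement membrane chains, Col4a5 (-1.96 ± 0.23), Col15a1 (-1.85 ± 0.33), Col4a6 (-1.34 ± 0.32), Col4a1 (-0.96 ± 0.29), Col4a2 (-0.88 ± 0.35) and Col18a1 (-0.59 ± 0.17) were all lower at P21 against P7. Col4a1 held 4.43 to 8.4 CPM at P7, 4.48 to 8.28 CPM at P12 and 2.51 to 4.12 CPM at P21. Its P21 libraries lay below all P7 and P12 libraries. Outside these classes, Col20a1, a FACIT of unclear role, was 3.58-fold higher at P21 against P7 (1.84 ± 0.23, adjusted p = 1.4e-07), and Col7a1, the anchoring fibril chain, rose by 2.08 ± 0.35 while staying under 1 CPM in every Neurod1 library. Col28a1, known from peripheral nerve, held 1.02 to 2.17 CPM at P7, 0.365 to 1.07 CPM at P12 and 0.0377 to 0.178 CPM at P21 (-3.73 ± 0.4 at P21 against P7, 13.2-fold lower, adjusted p = 1.5e-08). Col3a1 (-1.13 ± 0.25), Col6a3, a type VI microfibril chain (-2.36 ± 0.4), and Col26a1 (-2.07 ± 0.28) were lower as well, while Col1a1 (-0.21 ± 0.27, adjusted p = 0.48) and Col1a2 (0.23 ± 0.24, adjusted p = 0.39) were higher at P12 than at P7 and did not pass at P21 against P7.

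In the inputs, with 1 library per age and so no test, 9 of 32 collagens with at least 20 counts at P21 and P7 were above and 23 below their P7 level at P21. Col5a1 stood at 15.3, 63.6 and 40.8 CPM and Col5a2 at 12, 5.16 and 2.0 CPM in the inputs of P7, P12 and P21. Col18a1 stood at 27.3, 38.6 and 45.2 CPM, in rising order, while in TRAP it was lower at P21 against P7.

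The partner genes changed in mixed directions with age, as did all genes. At P21 against P7, 38.9% of all genes tested were higher and 42.5% lower. The shares were 31.5% and 36.7% at P12 against P7 and 32.4% and 32.7% at P21 against P12. The counts below are to be read beside these shares. Of 19 assembly genes 9 were higher and 7 lower at P21 against P7, among them the coat protein subunit of collagen export Sec24d (-3.16 ± 0.13, 8.93-fold lower), Plod2 (-2.33 ± 0.14), the collagen chaperone Serpinh1 (-2.65 ± 0.21) and the prolyl isomerase Fkbp14, which was higher (1.8 ± 0.14). Of 14 cross-linking and cleavage genes 3 were higher and 5 lower, with Adamts14 (-4.59 ± 0.42), Loxl1 (-3.08 ± 0.23) and the collagenase Mmp14 (-2.61 ± 0.21) leading. Of 8 receptors 2 were higher and 5 lower. Adgrg1, the adhesion receptor for type III collagen, was 10.2-fold lower (-3.36 ± 0.17), Ddr2 7.27-fold lower (-2.86 ± 0.27), and Ddr1 2.6-fold higher (1.38 ± 0.15). Of 15 basement membrane partners 2 were higher and 9 lower, with Lama5 (-2.84 ± 0.17), the nidogen Nid2 (-2.05 ± 0.31) and Agrn (-0.81 ± 0.12) leading. Endothelial markers summed to 9.49 to 20 CPM at P7, 15.9 to 22.0 CPM at P12 and 11.0 to 21.2 CPM at P21, and fibroblast markers to 27.1 to 43.6, 25.5 to 38.0 and 18.5 to 34.3 CPM. At P12 against P7, 4 of 10 endothelial, 3 of 9 mural and 2 of 10 fibroblast markers were higher, and 1 fibroblast marker was lower. At P21 against P12, 2 endothelial markers were higher and 5 lower, and 3 mural and 2 fibroblast markers were lower. At P21 against P7, 3 of 10 endothelial, 3 of 9 mural and 5 of 10 fibroblast markers were higher and 1, 3 and 1 lower. Their part in the collagen values was not tested.

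Between the lines at P7, collagens were lower in Neurod1 TRAP than in Math1 TRAP. Of 34 tested, 4 were higher and 20 lower, where 36.5% of 14759 genes were higher and 35.8% lower (72.4% in all). The median log2 fold change was -0.84 over the collagens and 0.01 over all genes. Of the fibrillar chains 9 of 10 were lower and 0 higher, and all 6 basement membrane and multiplexin chains were lower. The libraries differ in transgene and in starting material, lysates of whole cerebellum against isolated progenitors, and these cannot be told apart.

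Col18a1 (Entrez 12822, chr10:77052178-77166530), the multiplexin from which endostatin is cut, held 7.24, 12.3, 10.4, 12.4 and 16.7 CPM in Neurod1 TRAP, against 87.2, 91.1, 85.7 and 71.5 CPM in Math1 TRAP. The groups stood far apart, and the 4 Math1 libraries lay close together, above the 27.3 CPM of the P7 input. The fall was 2.86 ± 0.17 (7.27-fold, adjusted p = 4.1e-12). Col4a1 held 4.43, 6.11, 6.25, 5.11 and 8.4 CPM in Neurod1 TRAP, against 66.7, 40.5, 26.7 and 18 CPM in Math1 TRAP. The Math1 libraries spread widely among themselves but all lay above Neurod1 TRAP (-2.7 ± 0.28, 6.49-fold lower, adjusted p = 2.6e-08). Col4a2 showed the same spread, at 2.78, 3.95, 3.94, 2.94 and 7.26 CPM in Neurod1 TRAP, against 42.2, 32.4, 16.2 and 9.7 CPM in Math1 TRAP. Col27a1 held 0.822 to 1.43 CPM in Neurod1 TRAP, against 6.43 to 9.07 CPM in Math1 TRAP (-2.72 ± 0.21, 6.58-fold lower). Col23a1 was 5.1-fold lower (-2.35 ± 0.22) and Col11a1 3.37-fold lower (-1.75 ± 0.19), with 7.27 to 14.2 CPM in Neurod1 TRAP, against 27.2 to 37.8 CPM in Math1 TRAP. Col2a1, the cartilage fibril chain, was lower too (-1.92 ± 0.24).

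The 4 collagens higher in Neurod1 TRAP were Col19a1, Col28a1, Col20a1 and Col9a2. Col19a1 (Entrez 12823, chr1:24257683-24587922), a FACIT that subsets of neurons are known to make, held 4.46, 4.44, 5.48, 5.72 and 5.21 CPM in Neurod1 TRAP, against 0.782, 0.152, 0.825 and 0.449 CPM in Math1 TRAP. The groups did not overlap (3.21 ± 0.26, 9.27-fold higher, adjusted p = 3.5e-10), and the P7 input stood above both at 6.79 CPM. Col28a1 held 1.02 to 2.17 CPM in Neurod1 TRAP and 4, 3, 2 and 0 counts in the Math1 libraries (3.44 ± 0.46, adjusted p = 8.4e-07). Col9a2 (0.54 ± 0.16, adjusted p = 0.0046) lost its call against Math1 libraries 3 and 4 alone (0.13, adjusted p = 0.4), and Col20a1 (0.81 ± 0.31, adjusted p = 0.023) did not pass without Math1 library 2, 3 or 4 or without Neurod1 library 1 or 3 (0.63 to 0.8, adjusted p = 0.055 to 0.079). Col9a1 was lower in Neurod1 TRAP (-0.61 ± 0.1), at 10.5 to 13.7 CPM, against 15.9 to 19.1 CPM in Math1 TRAP, and Col9a3 was lower by 1.09 ± 0.14. Col9a1 counts per Col9a2 count were thus 1.6 in Neurod1 TRAP (1.42 to 2.18) and 3.87 in Math1 TRAP (2.8 to 4.69), without overlap.

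Of 19 assembly genes 17 were lower in Neurod1 TRAP and 0 higher, among them P4hb (-1.29 ± 0.11), Plod3 (-1.29 ± 0.12) and Crtap (-2.17 ± 0.23), which act on prolines and lysines of new chains. Of 15 basement membrane partners 13 were lower and 0 higher, led by Lama4 (-2.88 ± 0.26), dystroglycan Dag1 (-1.1 ± 0.13) and Agrn (-1.01 ± 0.12). Receptors were lower in 7 of 8, led by the integrin chain Itgb1 (-1.47 ± 0.12), Adgrg1 (-1.9 ± 0.15) and Ddr1 (-1.63 ± 0.15). Of 14 cross-linking and cleavage genes 3 were higher, with Adamts3 leading (1.72 ± 0.17), and 6 lower, with Adamts14 (-3.0 ± 0.22) and Loxl1 (-2.06 ± 0.19) leading. Endothelial markers were lower in 9 of 10 and summed to between 9.49 and 20 CPM in Neurod1 TRAP, against 36.4 to 64.5 CPM in Math1 TRAP. Mural markers were lower in 7 and higher in 1 of 9. Fibroblast markers went the other way, higher in 5 and lower in 1 of 10, with sums of 27.1 to 43.6 CPM in Neurod1 TRAP, against 9.44 to 29.6 CPM in Math1 TRAP. Their part in the collagen values was not tested.

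The pull-down from progenitors of the Math1 line at P7 was set against whole RNA of freshly isolated cells of C57Bl/6J mice of P6 to P7. Line, kind of RNA and preparation change together here and cannot be told apart. Of 37 collagens, 1 was higher in Math1 TRAP than in DIV0 cells and 28 were lower, where 33.2% of 14804 genes were higher and 33.4% lower (66.6% in all). The median log2 fold change was -2.41 over the collagens and -0.03 over all genes, and with library size only the median of all genes was -0.24. The gene that was higher is Col9a1, at 16.5, 15.9, 19.1 and 18.6 CPM in Math1 TRAP, against 5.71 and 5.5 CPM in DIV0 cells (1.66 ± 0.15, 3.15-fold higher, adjusted p = 3.1e-05). The groups did not overlap. Col9a2 was lower (-1.17 ± 0.3), at 3.42 to 6.65 CPM in Math1 TRAP, against 9.26 and 12.7 CPM in DIV0 cells, and Col9a3 was lower by 0.6 ± 0.09.

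Fibrillar chains of fibroblasts were among those lowest in the pull-down. Col1a2 held 11.5, 6.96, 11.1 and 7.99 CPM in Math1 TRAP, against 135 and 134 CPM in DIV0 cells (-3.83 ± 0.18, 14.2-fold lower, adjusted p = 2.6e-06). Col3a1 held 23.9, 13.1, 18.1 and 14.1 CPM in Math1 TRAP, against 200 and 193 CPM in DIV0 cells (-3.49 ± 0.2). Col15a1 was 18.8-fold lower (-4.23 ± 0.27), Col6a1, a type VI microfibril chain, 13-fold lower (-3.7 ± 0.21), and Col26a1 was lower by 3.39 ± 0.26. Col18a1 differed least among the called basement membrane chains, at 71.5 to 91.1 CPM in Math1 TRAP, against 128 and 123 CPM in DIV0 cells (-0.56 ± 0.11, 1.48-fold lower, adjusted p = 0.0014). Col2a1 (-0.41 ± 0.23), Col23a1 (-0.34 ± 0.29) and Col27a1 (-0.19 ± 0.19) did not pass. Cross-linking and cleavage genes were lower in 13 of 15, with Loxl2 (-3.23 ± 0.21), Mmp2 (-3.18 ± 0.24) and Lox (-4.3 ± 0.55) leading. Receptors were lower in all 10, with Itgb1 (-1.15 ± 0.09), Mrc2 (-2.9 ± 0.24) and Ddr2 (-2.97 ± 0.26) leading, and 13 basement membrane partners were lower, among them Lamc1 (-2.17 ± 0.11), Nid2 (-3.42 ± 0.26) and Lama2 (-3.43 ± 0.29). Of 20 assembly genes 11 were lower and 2 higher, with Mia3 (-1.32 ± 0.1), Plod2 (-1.18 ± 0.11) and Fkbp10 (-1.41 ± 0.2) leading. Endothelial markers were lower in 10 of 10, summing to between 36.4 and 64.5 CPM in Math1 TRAP, against 337 and 354 CPM in DIV0 cells, and fibroblast markers were lower in 9, summing to between 9.44 and 29.6 CPM, against 303 and 306 CPM. Their part in the collagen values was not tested.

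In culture the collagens rose to a far larger share of the RNA. At DIV5 against DIV0, 34 of 43 collagens were higher and 6 lower, where 40.2% of 15978 genes were higher and 38.2% lower (78.3% in all). The median log2 fold change was 2.85 over the collagens and 0.04 over all genes. At DIV2 against DIV0, 23 were higher and 12 lower (36.4% and 35% of genes, 71.3% in all), and at DIV5 against DIV2, 38 were higher and 2 lower (31.1% and 35.7% of genes, 66.7% in all). The medians over the collagens were 0.95 and 1.61. At DIV2 against DIV0 the median was 0.57 without DIV2 library 2 and 0.6 without DIV0 library 2. The 2 lower at DIV5 against DIV2 were Col9a2 (-0.44 ± 0.17) and Col9a3 (-0.37 ± 0.08), and 0 were called lower without DIV2 library 1 and 1 without DIV2 library 2 or DIV5 library 1. These comparisons share libraries. All 11 fibrillar chains were higher at DIV5 against DIV0, as were 10 of 11 microfibrillar and network chains, 6 of 9 FACITs and 5 of 7 basement membrane and multiplexin chains. With library size only, the median of all genes at DIV5 against DIV0 was 0.15, and 57.4% instead of 46.6% of called genes were higher at DIV5 against DIV2.

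The chains of types I and III made up most of this mass. Col1a1 held 109 and 106 CPM at DIV0, 1905 and 3234 CPM at DIV2 and 7688 and 6927 CPM at DIV5. The 3 days did not overlap, and DIV5 was 66.7-fold higher than DIV0 (6.06 ± 0.34, adjusted p = 5.8e-05). Col1a2 was 33.8-fold higher (5.08 ± 0.3), at 4926 and 4376 CPM at DIV5, and Col3a1 19.2-fold higher (4.26 ± 0.24), at 4164 and 3546 CPM at DIV5, against 200 and 193 CPM at DIV0. Together Col1a1, Col1a2 and Col3a1 took 0.0456% of counts at DIV0, 0.533% at DIV2 and 1.74% at DIV5. The chains of one trimer did not keep a fixed ratio: Col1a1 counts per Col1a2 count had medians of 0.796, 1.71 and 1.57 at DIV0, DIV2 and DIV5. For Col4a1 per Col4a2 the group medians ran only from 1.28 to 1.88 over all 13 groups.

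Col5a1 (5.09 ± 0.34) and Col5a2 (4.73 ± 0.29) rose at DIV5 against DIV0, and so did Col2a1 (2.85 ± 0.09, 7.21-fold, adjusted p = 1e-12). Col24a1 (Entrez 71355, chr3:145292472-145552013), a fibrillar chain of developing bone and cornea, held 0.24 and 0.126 CPM at DIV0, 3.09 and 1.7 CPM at DIV2 and 19.6 and 30.6 CPM at DIV5 (7.11 ± 0.48, adjusted p = 2.2e-06). Col19a1 held 0.361 and 0.671 CPM at DIV0, 23.1 and 23.8 CPM at DIV2 and 45.7 and 51 CPM at DIV5 (6.43 ± 0.17, 86.5-fold higher, adjusted p = 1.6e-13). Both genes were near 0 in fresh cells and at each later day lay above the day before. Among network chains Col8a1, known from endothelium and cornea, held 0.481 and 0.629 CPM at DIV0, 21.1 and 36.0 CPM at DIV2 and 114 and 105 CPM at DIV5 (7.54 ± 0.47), and Col8a2 rose by 4.81 ± 0.16. Fitted folds of Col24a1, Col19a1 and Col8a1 rest on low counts in fresh cells.

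Of the 7 basement membrane and multiplexin chains tested, 2 were higher at DIV2 against DIV0, Col4a1 (1.16 ± 0.25) and Col4a2 (0.93 ± 0.25), 2 were lower, and all 7 were higher at DIV5 against DIV2. Col4a1 held 310 and 313 CPM at DIV0, 513 and 815 CPM at DIV2 and 2398 and 2035 CPM at DIV5. Col18a1 held 128 and 123 CPM at DIV0, 69.6 and 107 CPM at DIV2 and 703 and 591 CPM at DIV5. Both DIV2 libraries of Col18a1 lay below the fresh cells, a difference that did not pass (-0.45 ± 0.23, adjusted p = 0.14), and DIV5 was 6.91-fold higher than DIV2 (2.79 ± 0.23). Col15a1 was the chain of this class that was lower at DIV5 against DIV0, and Col4a4, which was lower at DIV2, did not pass at DIV5 (0.13 ± 0.38). Col15a1 stood at 48.4 and 47.4 CPM at DIV0, 1.91 and 1.87 CPM at DIV2 and 4.05 and 3.74 CPM at DIV5 (24.1-fold lower at DIV2 and 12.6-fold lower at DIV5, adjusted p = 7.1e-13 at DIV5). Its DIV0 libraries lay far above all later ones. Col26a1 fell at DIV2 and returned, at 14.3 and 15.3 CPM at DIV0, 1.42 and 1.23 CPM at DIV2 and 15.2 and 12.7 CPM at DIV5. Of type IX, Col9a1 rose (1.27 ± 0.15 at DIV5 against DIV0), Col9a3 fell by 0.69 ± 0.08, and Col9a2 (-0.42 ± 0.17, adjusted p = 0.039) lost its call with library size only (-0.31, adjusted p = 0.14), with DESeq2 (-0.43, adjusted p = 0.066), without DIV0 library 2 (-0.15) and without DMSO DIV5 library 1 (-0.25). Col13a1 (-0.9 ± 0.19) and Col25a1 (-1.38 ± 0.36), transmembrane collagens known from the innervation of muscle, fell, though Col25a1 did not pass without DIV0 library 2 (-1.15, adjusted p = 0.051). Col6a5 (-1.41 ± 0.45, adjusted p = 0.011) did not pass with DESeq2 (adjusted p = 0.11), without DIV0 library 1 (adjusted p = 0.057) or without DIV5 library 2 (adjusted p = 0.11).

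**Figure D4:**
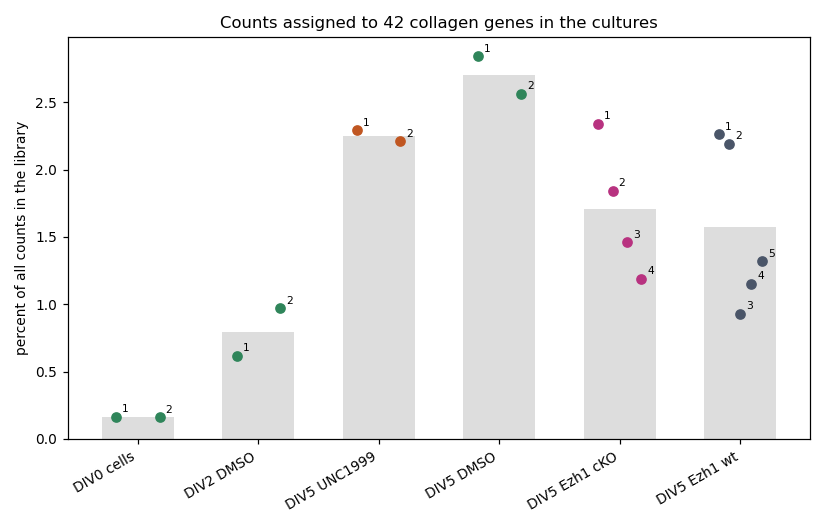
Percent of a library's counts that map to 42 collagen genes in each culture library (points, with replicate numbers) and the group mean (bars, from 0). The mean is 0.164% in freshly isolated cells, 0.793% at DIV2, 2.25% with UNC1999 and 2.7% with DMSO at DIV5, and in the Ezh1 cultures the libraries numbered 1 and 2 lie above the others of their genotype.

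Collagen partners rose with them. At DIV5 against DIV0, 19 of 20 assembly genes were higher and 1 lower, with P3h3 (2.01 ± 0.07), P3h1 (2.42 ± 0.09) and Fkbp14 (2.3 ± 0.09) leading. Cross-linking and cleavage genes were higher in 14 and lower in 1 of 16, with Adamts2 (4.3 ± 0.11, 19.7-fold higher), the collagen-degrading cathepsin Ctsk (3.29 ± 0.13) and the C-proteinase Bmp1 (2.99 ± 0.12) leading. Receptors were higher in 7 and lower in 2 of 10. Adgrg1 was 11.1-fold lower (-3.47 ± 0.07), and the integrin chain Itga10 (2.61 ± 0.17) and the leukocyte receptor Lair1 (2.26 ± 0.19) were higher. Basement membrane partners were higher in 13 and lower in 0 of 15, with Lamb2 (2.72 ± 0.09) and Agrn (1.15 ± 0.05) leading. Mural markers summed to 331 and 338 CPM at DIV0, 308 and 538 CPM at DIV2 and 1346 and 1564 CPM at DIV5, although only 5 of 10 were higher and 4 were lower at DIV5 against DIV0, with a median log2 fold change of 0.04. Fibroblast markers summed to 303 and 306, 104 and 162, and 1941 and 2386 CPM, and were higher in 9 and lower in 1 of 10 at DIV5 against DIV0. Endothelial markers summed to 337 and 354, 54.8 and 68.7, and 159 and 183 CPM, and were higher in 2 and lower in 8. Glial markers summed to 657 and 668, 795 and 798, and 1947 and 1991 CPM at DIV0, DIV2 and DIV5, and microglia markers, 8 of 8 higher at DIV5 against DIV0, to 84.3 to 86.4, 78.4 to 79.6 and 560 to 579 CPM. Their part in the collagen values was not tested.

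Cultures with UNC1999 for 5 days were set against those with DMSO. Of 43 tested, 2 were higher and 5 lower with UNC1999, where 6.36% of 15978 genes were higher and 5.53% lower (11.9% in all). The median log2 fold change was -0.23 over the collagens and 0 over all genes. At an unadjusted p under 0.05 edgeR gave 18 of the 43 collagens and 4129 of all genes. DESeq2 called 3 higher and 3 lower, and without UNC1999 library 2 edgeR called 1 higher and 4 lower. The abundant chains did not pass: Col1a1 held 5666 and 5594 CPM with UNC1999, against 7688 and 6927 CPM with DMSO (-0.36 ± 0.27, adjusted p = 0.49). Col3a1 (-0.32 ± 0.2) and Col4a1 (-0.21 ± 0.24) did not pass either, though both UNC1999 libraries lay below both DMSO libraries for all 3 genes. The share of counts was 2.25% ± 0.0554 with UNC1999 and 2.7% ± 0.199 with DMSO (SD, n = 2 each), a comparison in which an exact permutation test cannot go below p = 0.33.

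The largest called fall was that of Col24a1, which held 6.5 and 5.75 CPM with UNC1999, against 19.6 and 30.6 CPM with DMSO (-2.04 ± 0.25, 4.11-fold lower, adjusted p = 0.0022). Col22a1, a FACIT of tissue junctions, held 1.79 and 2.45 CPM with UNC1999, against 4.82 and 4.25 CPM with DMSO (-1.05 ± 0.2, 2.07-fold lower, adjusted p = 0.0045). Col2a1 held 72.0 and 65.2 CPM with UNC1999, against 110 and 99.4 CPM with DMSO (-0.59 ± 0.07, adjusted p = 0.00021). The groups did not overlap for any of these. Col27a1 held 25.6 and 30.4 CPM with UNC1999, against 15.6 and 18.8 CPM with DMSO (0.72 ± 0.11, 1.64-fold higher, adjusted p = 0.001). Col9a1 held 17.7 and 21.9 CPM with UNC1999, against 12.3 and 15.1 CPM with DMSO (0.55 ± 0.12, adjusted p = 0.01), and its call was lost without DMSO library 1 (0.43, adjusted p = 0.1) or without UNC1999 library 2 (0.4, adjusted p = 0.14). Col15a1 (-0.68 ± 0.16, adjusted p = 0.012) was lost without DMSO library 1 (adjusted p = 0.076) or UNC1999 library 1 (adjusted p = 0.072). Col9a3 (-0.3 ± 0.08, adjusted p = 0.035) did not pass with library size only (adjusted p = 0.055), with DESeq2 (adjusted p = 0.078) or without UNC1999 library 1 (-0.25), UNC1999 library 2 (-0.35) or DMSO library 2 (-0.17).

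**Figure D5:**
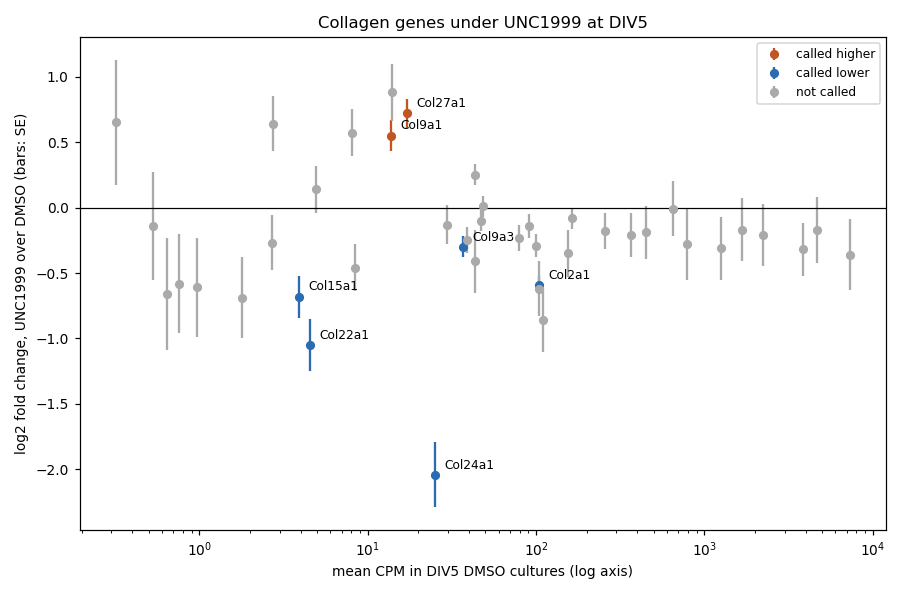
Log2 fold change of UNC1999 over DMSO at DIV5 with its SE (bars) against the mean CPM in DMSO (log axis) for 43 collagens, with the called genes labelled. Col27a1 and Col9a1 lie above 0 and Col24a1, Col22a1, Col15a1, Col2a1 and Col9a3 below it, while the most abundant chains lie near or somewhat below 0 and did not pass.

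Of the partner genes, 6 of 20 assembly genes were lower with UNC1999 and 0 higher, among them the prolyl 3-hydroxylase P3h2 (-0.85 ± 0.18), P4ha1 (-0.37 ± 0.08) and Plod2 (-0.25 ± 0.06). Receptors were lower in 2 of 10, Ddr1 (-0.44 ± 0.05) and Adgrg1 (-0.48 ± 0.07). Cross-linking and cleavage genes were lower in 1 of 16, the lysyl oxidase Loxl4 (-1.09 ± 0.22). Basement membrane partners were lower in 2 of 15, the laminin chains Lama5 (-0.58 ± 0.12) and Lamb2 (-0.3 ± 0.08). None of these lists held a gene called higher, and 5.53% of all genes tested were lower. Fibroblast markers summed to 2505 and 2891 CPM with UNC1999, against 1941 and 2386 CPM with DMSO, and mural markers to 1153 and 1222 CPM, against 1346 and 1564 CPM. Of these 2 lists 0 genes were called, while 3 of 10 endothelial and 5 of 8 glial markers were lower and 6 of 8 mature granule cell markers higher. Their part in the collagen values was not tested.

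Loss of Ezh1 was read in the conditional cultures. Ezh1 itself held 31.2, 32.0, 30.5 and 29.2 CPM in Ezh1 cKO, against 36.9, 37.9, 42.6, 40.7 and 34.8 CPM in Ezh1 wt. Every cKO library lay below every wt library, by a log2 fold change of -0.34 that did not pass over all genes (adjusted p = 1). No collagen of 37 was called, and none of 14461 genes was (0%). At an unadjusted p under 0.05 edgeR gave 1 collagen, Col17a1, the transmembrane collagen of epithelial hemidesmosomes (0.44 ± 0.17), and 169 of all genes, and DESeq2 called 0 collagens and 1 of all genes. Col1a1 stood at 0.04 ± 0.3, Col4a1 at 0.14 ± 0.33 and Col18a1 at 0.19 ± 0.78.

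Collagens took 1.71% ± 0.496 of counts in Ezh1 cKO and 1.57% ± 0.613 in Ezh1 wt (SD, n = 4 and 5), and the spread went with the library numbers. Col18a1 held 584 and 464 CPM in cKO libraries 1 and 2, 167 and 111 CPM in cKO libraries 3 and 4, 589 and 565 CPM in wt libraries 1 and 2 and 73.8, 74.0 and 139 CPM in wt libraries 3 to 5. Col15a1 held 20.7 and 26.1 CPM in cKO libraries 1 and 2, 3.43 and 2.8 CPM in cKO libraries 3 and 4, 15.3 and 14.3 CPM in wt libraries 1 and 2 and 1.6, 1.63 and 4.56 CPM in wt libraries 3 to 5. Over 42 collagens, 25 were higher in all of libraries 1 and 2 of both genotypes than in all others, and 3 lower. This count was not made over all genes, so that it cannot show whether the split is particular to collagens. Within libraries 1 and 2 alone, within libraries 3 and above alone, and with a term for the library set, 0 collagens were called, with 3, 9 and 4 at an unadjusted p under 0.05. Over all genes 573 of 14945, 666 of 14051 and 1145 of 14461 stood under that value. With the replicate number as a block 0 collagens were called as well, with 8 collagens and 1430 of 14461 genes at an unadjusted p under 0.05. Markers of some other cells spread in the same way, and those of others in the opposite way. Glial markers summed to 8229 to 10628 CPM in cKO libraries 1 and 2, 4212 to 5337 CPM in cKO libraries 3 and 4, 5137 to 10526 CPM in wt libraries 1 and 2 and 2153 to 4120 CPM in wt libraries 3 to 5. In the same order fibroblast markers summed to 420 to 666, 195 to 271, 649 to 703 and 121 to 263 CPM, oligodendrocyte markers to 949 to 1052, 120 to 209, 685 to 841 and 170 to 198 CPM, and microglia markers to 307 to 372, 56.4 to 62.7, 377 to 423 and 40.1 to 66.7 CPM. Endothelial markers summed, again in this order, to 82.5 to 107, 55.5 to 55.6, 102 and 51.3 to 78.9 CPM. Purkinje cell markers summed to 121 to 130, 90.8 to 100, 102 to 113 and 78.7 to 91.3 CPM. The glial sums of wt libraries 1 and 2 and of cKO libraries 3 and 4 overlapped. Mural markers overlapped between the library sets, at 1126 to 1233, 1268 to 1437, 1303 to 1923 and 1171 to 1597 CPM. Other lists were lower in libraries 1 and 2. In the same order GABAergic interneuron markers summed to 99.8 to 141, 267 to 294, 82.1 to 105 and 264 to 342 CPM. Choroid plexus markers summed to 17.5 to 24.0, 33.0 to 36.9, 16.5 to 23.5 and 30.5 to 47.7 CPM. Mature granule cell markers summed to 1312 to 1413, 2103 to 2130, 1221 to 1618 and 1755 to 2326 CPM. Granule progenitor markers summed to 281 to 304, 378 to 391, 290 to 298 and 404 to 429 CPM. What these cells add to the collagen values was not tested.

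The difference between the UNC1999 effect and the Ezh1 cKO effect, over 13 libraries, was called for 0 of 42 collagens and 0 of 15453 genes (0%). At an unadjusted p under 0.05 edgeR gave 1 collagen, Col24a1 (-1.86 ± 0.68), and 247 of all genes, and DESeq2 called 0 collagens and 7 of all genes. With a term for the Ezh1 library set edgeR called 0 collagens and 7 of all genes, with 11 collagens and 1055 genes at an unadjusted p under 0.05. No library is shared by these effects. Col24a1 held 7.59, 3.33, 2.57 and 2.5 CPM in Ezh1 cKO, against 2.47, 4.09, 4.49, 7.39 and 4.09 CPM in Ezh1 wt, so that these groups overlapped, while the UNC1999 and DMSO groups did not.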

How the data were processed

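Polyadenylated RNA of 39 libraries was sequenced (NextSeq, single-end reads), per the labels' protocols. Estimated counts were deposited by the authors as whole numbers for each gene, without normalization. Salmon 0.8.2 and mm10 appear in the submitters' processing notes, with no role stated. Of 24100 Entrez identifiers 24045 were matched to symbols through RefSeq (GRCm38.p6), and the other 55 held on average 0.0361% of counts. No value is given for 1041 genes, 2 of them collagens, in the Ezh1 cultures.

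The members, classes, pathway lists and marker lists were chosen with earlier results of these data known. Genes were tested with edgeR 4.0.16 (R 4.3.3), by robust quasi-likelihood fits after TMM scaling. The filter filterByExpr was set to a minimum count of 10 and a total of 15. Tests were two-sided, with Benjamini-Hochberg adjustment over all genes tested and calls at an adjusted p under 0.05. There were 12 comparisons. Separate fits were made of the 4 TRAP groups, of the 4 groups of DIV0 to DIV5, of Math1 TRAP with DIV0, of the Ezh1 cultures and, for the difference of effects, of 13 libraries. Neurod1 TRAP and input were fitted with age as a factor. The fits were tested on simulated data. CPM were set on 1 TMM scale over all libraries, after which ± is the SD, and per kb on merged exons of GENCODE vM21. Ratios of chains needed 20 counts of both genes. The labels name no molecular identifiers. The alternatives were library-size scaling, DESeq2 size factors, the DESeq2 1.42.0 test, no low-count filter, a replicate block and leaving out each library. Math1 libraries were also split into 1 and 2 against 3 and 4. The split of the Ezh1 libraries, the term for it and the block for Math1 TRAP against DIV0 were chosen after seeing the data.

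Named genes are up to 4 members per class by highest group mean, up to 6 called members per direction and comparison by adjusted p, every TRAP-enriched member, partners of chain pairs, and up to 3 called genes per pathway list and comparison. Other members, including those beside a threshold and Serpinh1, were named after their values were seen. In the Ezh1 cultures deviations of the 4 same-numbered pairs of libraries correlated at 0.83 to 0.89 across genes. Pairs of other numbers ran from -0.9 to 0.89. Same-numbered pairs always fall in the same library set, so these values cannot show whether the numbers pair the libraries. In the other fits the lowest correlation of same-numbered libraries was under 0.1.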

Additional observations from a re-analysis of the deposited data

Results flagged for a closer look

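Outliers were sought in groups of 4 or 5 libraries, each read for 1 collagen or for the summed collagen share. Of 125 such readings, 6 held a value whose gap to its nearest neighbour was large for the range of its group. Chance alone gives about 1 in 20. All 6 were in Neurod1 TRAP. Col16a1 stood at 1.55 CPM in P7 library 4, against 4.24 to 5.1 CPM in the other 4 and 5.06 CPM in the P7 input. Col4a2 stood at 7.26 CPM in P7 library 5, against 2.78 to 3.95 CPM in the others. At P12, library 1 was lowest for Col18a1, at 6.95 CPM against 10.6 to 11.6 CPM in the others, and highest for Col1a1, at 11.7 CPM against 4.72 to 5.47 CPM. Col1a2 stood at 4.38 CPM in P21 library 1, against 7.12 to 7.92 CPM in the others. Col9a1 stood at 5.61 CPM in P21 library 4, against 7.13 to 7.73 CPM in the others, still above the 5.54 CPM of its input.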

How the results depend on the processing

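The alternatives were followed for up to 6 called collagens per direction and comparison, those with the smallest adjusted p. Of their 1287 values, 0 changed direction and 44 lost their call, in 15 pairs of a gene and a comparison. These genes were picked by their calls in the same data, and other members are not in this count. The number of collagens called stayed within 1.5 times the reported count in all alternatives except the UNC1999 comparison without a low-count filter, which gave 11 (5 higher, 6 lower) instead of 7. The cause was not tested. Leaving out each library gave 17 to 21 calls at P12 against P7, 24 to 27 at P21 against P12, 23 to 26 at P21 against P7, 22 to 27 between the TRAP lines, 33 to 35 against input, 24 to 32 for Math1 TRAP against DIV0, 29 to 36 at DIV2 against DIV0, 35 to 39 at DIV5 against DIV2, 37 to 39 at DIV5 against DIV0, 5 to 7 with UNC1999, and 0 in the Ezh1 cultures and the difference of effects. Against Math1 libraries 1 and 2 alone 23 were called, and against libraries 3 and 4 alone 24. Col23a1 at P12 against P7 passed by little (adjusted p = 0.04, and 0.051 to 0.15 without P7 library 2 or 5 or P12 library 1, 3 or 4), as did Col20a1 at P21 against P12 (0.015, and 0.054 without P12 library 4), Col7a1 at P21 against P12 (0.017, and 0.059 without P21 library 5) and Col20a1 between the lines (0.023, and 0.21 with Math1 libraries 1 and 2 alone).

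The replicate block gave 19, 28 and 24 calls between ages, 24 between the lines, 28 for Math1 TRAP against DIV0, 34, 40 and 39 in culture, 6 with UNC1999, where Col9a3 was lost (adjusted p = 0.059), and 0 in the Ezh1 cultures. Same-numbered libraries are known to share only a number, and outside the Ezh1 cultures the correlations of their deviations lay between -0.32 and 0.23. Against input no block was possible, with 1 input per age, and for the difference of effects none was fitted. Limits are the 2 libraries per group in culture, the single input of each age, and the low counts of members such as Col4a3, whose group means did not exceed 1.05 CPM.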

Other observations

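Type VI chains, which form the beaded microfibrils around many cells, are given here by the ratio of their counts, a description with no test. Counts of Col6a1 per count of Col6a2 had medians of 0.841, 0.943 and 0.917 in Neurod1 TRAP at P7, P12 and P21, against 1.32, 1.27 and 1.06 in the inputs, and of 0.909 in Math1 TRAP. In 5-day cultures the medians were 1.41 with UNC1999, 1.43 with DMSO, 1.4 in Ezh1 cKO and 1.43 in Ezh1 wt. Col6a3, the long type VI chain, held 60.2 and 72.5 CPM with UNC1999, against 114 and 93 CPM with DMSO. It held 656, 714, 247 and 265 CPM in Ezh1 cKO, against 541, 553, 115, 98.3 and 245 CPM in Ezh1 wt. Libraries 1 and 2 of both genotypes were the highest, and neither difference passed edgeR's test (log2 change of -0.62, adjusted p = 0.15, with UNC1999, and of 0.59, adjusted p = 1, in Ezh1 cKO). The neighbours Col4a5 and Col4a6, whose start sites lie 1343 bases apart on the X chromosome, kept medians of 2.77 to 4.59 counts of Col4a5 per count of Col4a6 in the groups where both could be counted.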
